A study of Mus musculus with 6 samples.

Results

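Immune checkpoint ligands are surface or secreted molecules through which a tumor cell restrains the immune cells that touch it. PD-L1, encoded by Cd274, binds PD-1 on T cells and dampens signaling from the T-cell receptor, and interferon-gamma is its best known inducer. Its relatives of the B7 family either restrain or costimulate T cells, while other ligands act by different routes: galectin-9 binds TIM-3, CD73 makes immunosuppressive adenosine, CD47 is the signal that stops macrophages from engulfing a cell, and PVR binds TIGIT on T cells and NK cells. Here 10 genes of this kind, chosen by symbol with earlier results of these data known, were followed in mouse lung adenocarcinoma cells with and without ectopic ZEB1. They are Cd274 (PD-L1), Pdcd1lg2 (PD-L2), Cd80, Cd86, Cd276 (B7-H3), Vtcn1 (B7-H4), Lgals9 (galectin-9), Nt5e (CD73), Cd47 and Pvr (CD155). All 10 were among the 24214 features counted, and 6 of them, Cd274, Cd276, Lgals9, Nt5e, Cd47 and Pvr, had enough reads to be tested.

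The cells are an epithelial murine line, labelled as KP lung cancer cells of strain C57BL/6. The study compared 3 samples of cells transfected with a ZEB1 expression vector (393P_ZEB1) with 3 samples transfected with the empty vector (393P_vector), to find transcripts that differ when ZEB1, a transcription factor that drives epithelial-to-mesenchymal transition, is expressed ectopically. Both arms went through transfection, and the only labelled difference between them is the insert. The sources do not say whether the 3 samples of an arm come from separate transfections, so the p-values measure the spread between these samples, which may be technical, and each arm may stand for 1 transfected population. No interferon or immune cell is named in the labels of either arm.

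Total counts per sample lay between 54442450 and 79158012, and 3 counts corresponded to between 0.0379 and 0.0551 CPM, the unit used below, which is the count relative to the TMM-normalized library size. Zeb1 itself rose from 21.5 ± 0.435 to 51.7 ± 3.01 CPM (mean ± SD, n = 3 in each arm), and the epithelial genes Cdh1 and Epcam fell, with log2 fold changes of -4.09 and -6.54. The log2 fold change of Zeb1 was 1.26, and the median of the tested genes on its chromosome, 18, was 0.64. The sources do not say whether the ZEB1 insert is of human or mouse sequence, so the count on mouse Zeb1 may miss part of it. In 393P_vector, replicate 3 stood apart: between 5.0% and 5.51% of tested genes were more than 2-fold away from the other 2 vector samples, against 0.06% to 0.18% in the other pairs within an arm. Leukocyte transcripts were near the detection limit, with Ptprc, the pan-leukocyte gene CD45, at 0.258 CPM in vector and 0.198 CPM in ZEB1 cells, and Cd3e and Lyz2 at or below 0.0893 CPM. The 17 leukocyte markers summed to between 19.96 and 22.44 CPM in vector and between 58.8 and 61.8 CPM in ZEB1 cells. The largest part of that sum was Cd14, a lipopolysaccharide coreceptor, at 17.04 CPM in vector and 57.98 CPM in ZEB1 cells, followed in vector cells by Cd4 at 0.998 CPM. Of the 7 leukocyte markers tested, Cd14 rose and Itgax, Csf1r and Flt3 fell, the last 3 below 1 CPM in mean in both arms. Over all tested genes 18.3% were called higher and 19.3% lower. None of the 17 markers was at 0 in all samples, and their part in the ligand values was not tested. In bulk RNA of this kind, fewer cells that express a gene and less RNA per cell cannot be told apart.

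ZEB1 is best known for silencing the microRNAs of the miR-200 family, which repress their targets through short matches in the 3′ UTR, and for binding E-boxes in promoters. The sequences that bear on both are shown first. The 5 mature microRNAs, from RefSeq on build GRCm38.p6, fall into 2 groups by their seed, bases 2 to 8, which is in capitals.
mmu-miR-200b-3p: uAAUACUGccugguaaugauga
mmu-miR-200c-3p: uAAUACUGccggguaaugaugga
mmu-miR-429-3p: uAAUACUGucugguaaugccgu
mmu-miR-141-3p: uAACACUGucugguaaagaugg
mmu-miR-200a-3p: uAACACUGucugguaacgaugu

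The match to bases 2 to 8 of the first 3 is CAGTATT, present in an annotated 3′ UTR of 16.7% of the 12005 tested genes that have one, and that of the last 2 is CAGTGTT, present in 22.2%. Both were searched on the transcript strand of the GENCODE M21 transcripts. Among the 10 ligands, Nt5e held CAGTATT, and Cd274, Cd276 and Cd47 held CAGTGTT. The 3′ UTRs of Pdcd1lg2, Cd80, Cd86, Vtcn1, Lgals9 and Pvr held neither. The sites are printed with the match in capitals, since they belong to genes that follow. Of these, Cd274 rose, Nt5e fell and Cd276 did not pass the test. The Cd274 site began 2 bases after the stop codon at chr19:29385414-29385420 on the plus strand, that of Cd276 lay at chr9:58526289-58526295 on the minus strand, and that of Nt5e at chr9:88372022-88372028 on the plus strand (GRCm38), all inside 3′ UTR exons of the counted interval.
Cd274: gCAGTGTTgaaccctctga
Cd276: caccctctggCAGTGTTgagcttcaatg
Nt5e: ttttatgcagCAGTATTgagaaatgacc

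The 3 Cd47 sites lay at chr16:49911765-49911771, chr16:49913655-49913661 and chr16:49914728-49914734 on the plus strand, in a 3′ UTR longer than the interval the authors counted, which ends at 49911683. Cd47 reads from beyond that end are not in its counts. A match says only that these letters are present.

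The E-box CACCTG was searched on both strands of RefSeq promoter windows (GRCm38.p6) that run from 250 bases before to 50 bases after an annotated start. It was present in 20.2% of the 32851 windows and, counting any window of a gene, in 21.1% of the 9748 tested genes that had one. Windows were found for 8 of the 10 ligands, and not for Cd86 and Pvr. Of the 8, the Cd274 window held 1 E-box, 235 bases before the start, and the windows of Pdcd1lg2, Cd80, Cd276, Vtcn1, Lgals9, Nt5e and Cd47 held none. The Cd276 window, chr9:58554984-58555283, lay outside its counted interval on the minus strand, which ends at 58540940. Bases next to that end were not searched. The 250 bases before the Cd274 start, chr19:29367188-29367437 on the plus strand, are printed with the E-box in capitals because this was the ligand that rose.
Cd274 promoter: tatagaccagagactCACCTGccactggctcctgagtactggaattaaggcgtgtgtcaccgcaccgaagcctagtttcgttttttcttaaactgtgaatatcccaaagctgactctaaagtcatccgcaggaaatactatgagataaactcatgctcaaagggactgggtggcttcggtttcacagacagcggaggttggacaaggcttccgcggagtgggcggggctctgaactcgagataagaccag

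Among the 6 ligands with enough reads, PD-L1 rose and CD73 fell, and the other 4 did not pass the test. Across all 13892 tested genes 18.3% were called higher and 19.3% lower, 37.6% in either direction, so 1 of 6 in each direction is about the share of genes at large. The median log2 fold change of the 6 was 0.25, against -0.02 over all tested genes. In 5 of the 6 the samples of the arms did not overlap, which held for 52.8% of all tested genes. What set Cd274 and Nt5e apart from the others was the size of their change, 2.03-fold upward and 6.48-fold downward.

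**Figure D1:**
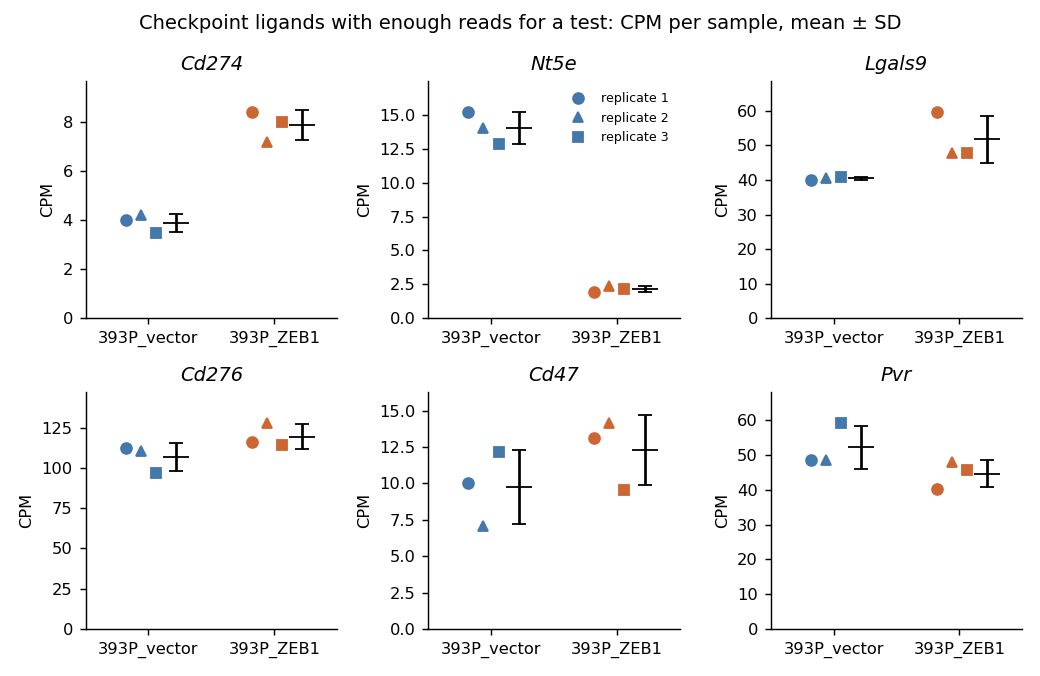
Each panel plots CPM (y axis from 0) of 1 ligand in each sample of 393P_vector (blue) and 393P_ZEB1 (orange), with symbols for the replicate number and a black mean ± SD. Cd274 doubled to a mean of 7.89 CPM and Nt5e dropped to 2.16 CPM with no overlap, while the samples of Cd47 overlapped.

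Cd274 lies on chromosome 19 from 29367438 to 29388094 on the plus strand, with 7 exons in the counted model. It was counted at 227, 247 and 289 reads in the vector samples and 451, 401 and 489 in the ZEB1 samples. Scaled to the library, these were 4.01, 4.20 and 3.48 CPM against 8.43, 7.22 and 8.01 CPM. Every ZEB1 sample was above every vector sample, with a gap wider than the range within either arm. The log2 fold change was 1.02 with a standard error of 0.15 (edgeR quasi-likelihood test, adjusted p = 0.00145), and its 95% interval ran from 0.67 to 1.37. The number of exons with more than 10 reads was 4 in each vector sample and 5 in each ZEB1 sample. A rise of this size or larger was found in 8.05% of all tested genes, 1119 in number, so the doubling of PD-L1 mRNA was in the upper tail but not at its end. Leaving out each sample in turn gave values from 0.94 to 1.09, all past the threshold.

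The neighborhood of Cd274 was examined because whole chromosomes differed between the arms, with chromosome medians of the log2 fold change from -0.43 to 0.64. Chromosome 19 was not among the shifted ones, with a median of -0.03 over 499 tested genes, of which Cd274 ranked 34 from the top. Set against that median its log2 fold change was 1.05 (edgeR with the chromosome median as offset, adjusted p = 0.00138). Within 500 kb the files hold 20 features including Cd274 itself. The nearest gene that rose was Insl6, an insulin-like peptide gene whose counted interval begins 46.1 kb before that of Cd274. Insl6 went from 0.552 to 1.26 CPM with a log2 fold change of 1.18 (edgeR, adjusted p = 0.00808). Between Insl6 and Cd274, 5033414D02Rik was at 16.7 and 22.02 CPM, a log2 fold change of 0.40 that missed the threshold (adjusted p = 0.155). Jak2, the kinase that relays the interferon-gamma signal to the PD-L1 gene and is often coamplified with it, was at 193.0 ± 23.9 CPM in vector and 208.5 ± 10.6 CPM in ZEB1 cells, a log2 fold change of 0.11 (adjusted p = 0.492). On the flanks Cdc37l1 and C030046E11Rik fell, with log2 fold changes of -0.43 and -0.48. The interval around Cd274 therefore held changes in both directions, as did the tested genes at large. Of all tested genes, 18.3% were called higher and 19.3% lower. Some of the 20 features were too low to test.

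**Figure D2:**
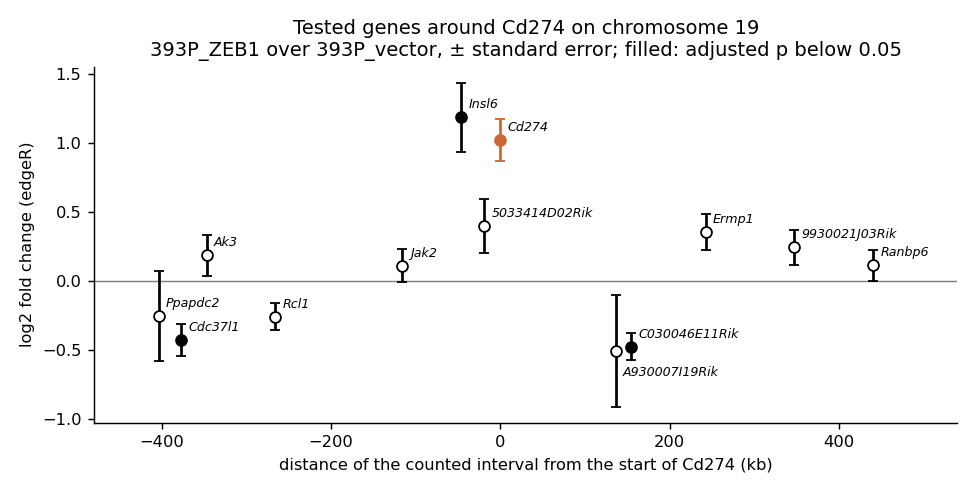
The x axis gives the distance in kb of each tested gene's counted interval from the start of Cd274, and the y axis its log2 fold change (393P_ZEB1 over 393P_vector) with the standard error. Cd274 (orange) at 1.02 and Insl6 at 1.18 are the filled points above 0, Cdc37l1 and C030046E11Rik are filled below 0, and Jak2 lies near 0.

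Pdcd1lg2, the other ligand of PD-1, starts 43.5 kb after the start of Cd274. It was counted at 2, 1 and 4 reads in the vector samples and 4, 6 and 7 reads in the ZEB1 samples. In CPM the arms did not overlap, from 0.017 to 0.0482 against 0.0748 to 0.115. The summed counts were 7 and 17, with 2 of the vector samples under 3 counts, so no fold is given. Without the filter on low counts its adjusted p was 0.112 (edgeR), and in an exact permutation test of the CPM p was 0.1, the smallest that 3 samples against 3 allow. PD-L2 was thus barely detected in either arm.

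The costimulatory ligands Cd80 and Cd86, through which antigen-presenting cells engage CD28 and CTLA-4, were at the same floor. Cd80 was counted at 1, 4 and 0 reads in vector and 1, 2 and 2 in ZEB1 samples. For Cd86 the counts were 2, 2 and 4 in vector and 2, 2 and 0 in ZEB1 samples. Their ranges overlapped, and any difference between the arms was not detectable at this depth. Vtcn1, whose product B7-H4 restrains T cells, was counted at 3, 3 and 6 reads against 2, 1 and 3. Its CPM did not overlap between arms (0.0510 to 0.0722 against 0.018 to 0.0491), but without the filter its adjusted p was 0.502 (edgeR). No exon of these 4 genes had more than 10 reads in any sample.

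Cd276, on chromosome 9 from 58524300 to 58540940 on the minus strand, was the B7 gene with the most reads. It stood at 112.7, 110.8 and 97.2 CPM in vector and 116.0, 128.2 and 114.1 CPM in ZEB1 samples. The ZEB1 samples were all above the vector samples, but by little: the closest pair was 112.7 and 114.1 CPM. This was a log2 fold change of 0.16 with a standard error of 0.11 (edgeR, adjusted p = 0.27). Set against the chromosome 9 median of -0.14 it was 0.30 (adjusted p = 0.0695), and without vector replicate 3 it was 0.10 (adjusted p = 0.341). The 95% interval with all samples and no offset, -0.09 to 0.41, leaves out a change as large as the doubling of Cd274. B7-H3 mRNA and PD-L1 mRNA, both with a CAGTGTT site, thus had values of 0.16 and 1.02; the difference between them was not tested.

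Nt5e encodes CD73, the surface enzyme that turns AMP into adenosine, which restrains T cells and NK cells. It lies on chromosome 9 from 88327609 to 88372089 on the plus strand. Its counts were 861, 825 and 1065 in the vector samples and 103, 133 and 132 in the ZEB1 samples. In CPM these were 15.2, 14.02 and 12.8 against 1.93, 2.39 and 2.16. The arms were far apart, and the spread within each was small. The log2 fold change was -2.70 with a standard error of 0.16 (edgeR, adjusted p = 9.84e-06). Only 3.12% of tested genes fell as much or more, and on chromosome 9, whose median was -0.14, it ranked 37 from the bottom of 772. All 9 exons had more than 10 reads in the vector samples, and between 3 and 5 did in the ZEB1 samples. Nt5e held a CAGTATT site and Cd274, which rose, a CAGTGTT site, present in 16.7% and 22.2% of tested genes with an annotated 3′ UTR. Cd276 and Cd47, which did not pass, also held CAGTGTT. The part of these sites in the changes was not tested.

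The enzymes that act before and after CD73 were read from a list of 15 adenosine genes, of which 13 were tested. Of these, 7 were lower, 2 were higher and 4 did not pass, with a median log2 fold change of -0.44. Over all tested genes 19.3% were called lower and 18.3% higher. CD39, the product of Entpd1, supplies CD73 with AMP by cutting ATP and ADP. Entpd1 was at 47.4, 46.4 and 56.6 CPM in vector and 0.112, 0.216 and 0.180 CPM in ZEB1 samples. It was thus close to lost from the ZEB1 samples, with 10105 reads summed over the vector samples and 29 over the ZEB1 samples, and a log2 fold change of -8.18 ± 0.23 (SE, edgeR, adjusted p = 5.92e-07). The related ectonucleotidases Entpd3 and Entpd2 fell too, from 24.7 to 0.497 CPM and from 1.18 to 0.0593 CPM. Enpp1, which also releases AMP from extracellular nucleotides, fell less, from 71.1 to 52.3 CPM (log2 fold change -0.44). The median of its chromosome, 10, was -0.30. Among the genes that lead to extracellular adenosine, Entpd1, Entpd2, Entpd3, Enpp1 and Nt5e were therefore lower, while Enpp3 and Alpl, both below 1 CPM in mean in each arm, did not pass.

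The genes that remove or sense adenosine moved both ways. Ada, the deaminase that destroys adenosine, fell from 4.21 to 2.64 CPM (log2 fold change -0.67), and Dpp4, which anchors it at the surface, rose from a level of only 0.163 to 0.360 CPM. The transporter gene Slc29a2 fell from 33.9 to 18.6 CPM, while Slc29a1 and the kinase gene Adk did not pass. Of the receptors, Adora2a, a high-affinity receptor through which adenosine raises cyclic AMP, was at 2.21, 2.86 and 2.50 CPM in vector and 17.4, 20.7 and 20.1 CPM in ZEB1 samples. The arms did not overlap, and the log2 fold change was 2.94 ± 0.16 (SE, edgeR, adjusted p = 7.11e-06). Adora2b, a receptor of lower affinity, fell from 0.712 to 0.298 CPM. Of the receptors tested, 1 thus rose and 1 fell.

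**Figure D3:**
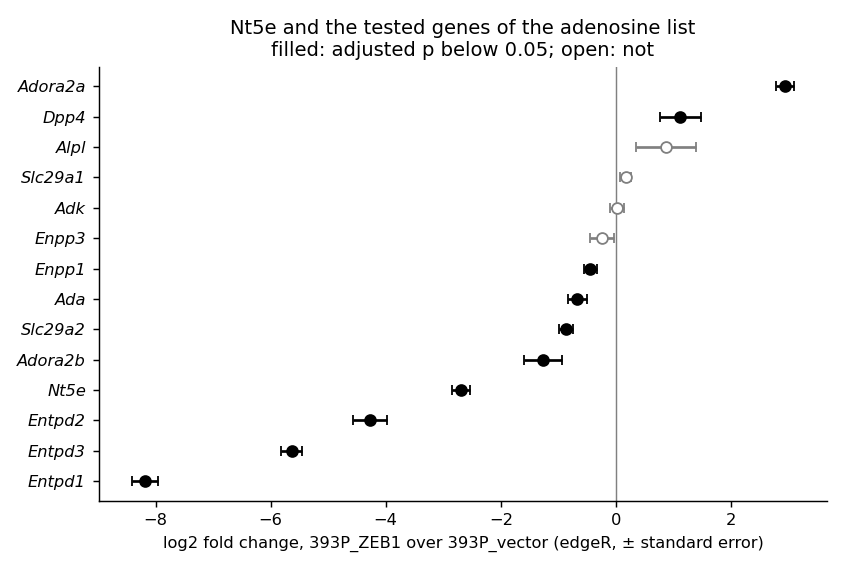
The x axis gives the log2 fold change (393P_ZEB1 over 393P_vector, ± SE) of Nt5e and the 13 tested genes of the adenosine list, 1 gene per line, filled where the adjusted p was below 0.05. Entpd1 at -8.18, Entpd3, Entpd2 and Nt5e at -2.70 sit far to the left, and Adora2a at 2.94 sits alone on the far right.

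Lgals9 encodes galectin-9, a secreted lectin that binds TIM-3, and lies on chromosome 11 from 78962979 to 78984924 on the minus strand. It was at 39.9, 40.5 and 41.0 CPM in vector and 59.7, 47.7 and 47.8 CPM in ZEB1 samples. The vector samples were nearly equal, all ZEB1 samples were above them, and ZEB1 replicate 1 was the highest. The log2 fold change was 0.35 with a standard error of 0.12, just outside the threshold (edgeR, adjusted p = 0.0548). The call depended on the test, with an adjusted p of 0.0383 in DESeq2, 0.00955 in limma with voom, and 0.0189 in edgeR without vector replicate 3. Chromosome 11 as a whole was shifted upward, with a median of 0.27. Set against it, Lgals9 differed by 0.09 (adjusted p = 0.625), so what was left beyond its chromosome was within the error. Of the other galectins listed, Lgals8 rose from 20.1 to 44.7 CPM (log2 fold change 1.16) and Lgals1 fell from 844.9 to 308.5 CPM (-1.45), its vector replicate 3 standing at 1229 CPM against 669.9 and 636.1 CPM in the others, while Lgals3 did not pass and was at 341 CPM in vector replicate 3 against 103 and 104 CPM in the other vector samples.

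Cd47 lies on chromosome 16 from 49855654 to 49911683 on the plus strand. It was at 10.0, 7.09 and 12.2 CPM in vector and 13.1, 14.2 and 9.57 CPM in ZEB1 samples. The arms overlapped, the highest vector sample being replicate 3. The log2 fold change was 0.33 with a standard error of 0.23 (edgeR, adjusted p = 0.302), and a 95% interval from -0.21 to 0.88. Leaving out single libraries moved it both ways, to 0.52 without vector replicate 3 (adjusted p = 0.0487), to 0.15 without vector replicate 2 (adjusted p = 0.624) and from 0.22 to 0.49 without a ZEB1 replicate. Chromosome 16 had a median of 0.25, and against it the difference was 0.08. Of 7 tested genes of CD47 partners and handling, 2 rose and 3 fell (18.3% and 19.3% over all tested genes). Qpct, a glutaminyl cyclase related to the Qpctl enzyme that modifies CD47, rose from 0.0510 to 0.846 CPM, with the vector samples at 1, 3 and 7 reads, whereas Qpctl itself was at 12.8 and 12.6 CPM. Calr, whose protein product on the surface is a signal for engulfment that CD47 opposes, fell from 1369 to 846.4 CPM (log2 fold change -0.69). Cd24a, which engages another inhibitory receptor of macrophages, rose from 133.6 to 183.8 CPM (0.46), and Thbs2, a thrombospondin gene, and Itgb3, an integrin subunit gene, fell by 1.96 and 0.51 on the log2 scale.

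Pvr, on chromosome 7 from 19903578 to 19921143 on the minus strand, was at 48.8, 48.6 and 59.4 CPM in vector and 40.3, 47.9 and 45.7 CPM in ZEB1 samples. The vector samples were all higher, by less than 1 CPM at the closest. The fitted log2 fold change was -0.23 with a standard error of 0.13 (edgeR, adjusted p = 0.202), and a 95% interval from -0.53 to 0.07. Without vector replicate 3, the highest sample, it was -0.13 (adjusted p = 0.291), and with limma voom -0.10. Of its 5 listed relatives, 2 fell and 1 rose (19.3% and 18.3% over all tested genes). Nectin4 fell from 7.95 to 0.130 CPM (log2 fold change -5.92) and Nectin1 from 7.90 to 0.259 CPM (-4.90), both adhesion molecules of epithelial junctions. Cadm1, an adhesion molecule of the same superfamily, rose from 203.4 to 357.1 CPM (0.81). Nectin2, which like PVR binds TIGIT, was at 134.5 ± 10.4 and 127.0 ± 7.3 CPM (-0.08, adjusted p = 0.566), and Nectin3 did not pass.

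**Figure D4:**
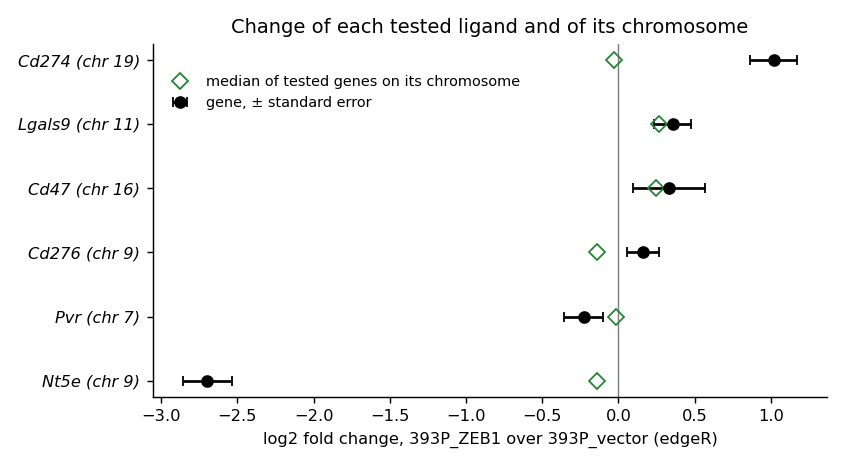
The x axis gives the log2 fold change (393P_ZEB1 over 393P_vector) of each tested ligand with its standard error (black) beside the median of all tested genes on its chromosome (green diamond). Cd274 at 1.02 and Nt5e at -2.70 lie far from their chromosome medians of -0.03 and -0.14, while Lgals9 and Cd47 lie close to theirs, 0.27 and 0.25.

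Per kilobase of counted exon, the order of the ligands in vector cells was Cd276 at 33.6 CPM per kb, Lgals9 at 25.7, Pvr at 18.1, Cd47 at 5.12, Nt5e at 3.93 and Cd274 at 1.07 CPM per kb. The other 4 were between 0.00983 and 0.0225 CPM per kb. Cd47 and Nt5e did not differ beyond their spread, with samples from 3.72 to 6.38 and from 3.59 to 4.26 CPM per kb. In ZEB1 cells the order was Cd276 at 37.6, Lgals9 at 32.8, Pvr at 15.5, Cd47 at 6.45, Cd274 at 2.17 and Nt5e at 0.605 CPM per kb, and here Cd276 and Lgals9 overlapped. The only change of order among the 6 was that Cd274 and Nt5e traded places. The ratio of Cd274 to Nt5e per kb, which does not depend on the library scaling, was 0.259, 0.294 and 0.267 in the vector samples and 4.31, 2.97 and 3.64 in the ZEB1 samples. Even after its doubling, PD-L1 mRNA was well below B7-H3, galectin-9, PVR and CD47 mRNA on this scale.

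**Figure D5:**
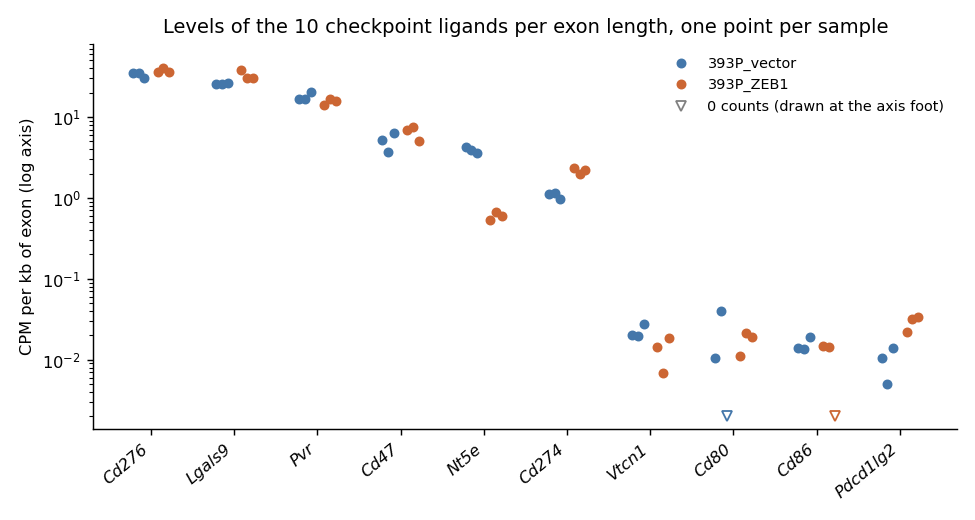
The y axis (log scale) gives CPM per kb of counted exon for the 10 ligands, 1 point per sample, 393P_vector in blue and 393P_ZEB1 in orange, with open triangles for samples at 0 counts. Cd276, Lgals9 and Pvr lead in both arms, Nt5e and Cd274 trade places, and Vtcn1, Cd80, Cd86 and Pdcd1lg2 stay below 0.05 CPM per kb.

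The route from interferon-gamma to PD-L1, and the factors that stabilize or degrade the PD-L1 protein, were read from a list of 17 genes, all of them tested. Of these, 6 rose, 2 fell and 9 did not pass, with a median log2 fold change of 0.11. Over all tested genes 18.3% were called higher and 19.3% lower. The receptor genes Ifngr1 and Ifngr2 and the kinase genes Jak1 and Jak2 were all among those that did not pass. Irf1, the transcription factor that acts last in this route on the PD-L1 promoter, was at 30.3, 32.2 and 28.0 CPM in vector and 44.5, 57.3 and 52.5 CPM in ZEB1 samples. Its arms did not overlap, with a log2 fold change of 0.77 (edgeR, adjusted p = 0.00273). Stat3, another activator of Cd274, rose from 63.1 to 89.8 CPM (0.51). Both lie on chromosome 11, whose median was 0.27. Socs1 and Socs3, feedback inhibitors of this route, did not pass.

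Among the genes that handle the PD-L1 protein, Cmtm6, which keeps it at the surface, did not pass (67.5 ± 1.11 and 74.6 ± 5.37 CPM), and its relative Cmtm4 fell from 298.4 to 191.5 CPM (log2 fold change -0.64). B3gnt3, a glycosyltransferase that decorates PD-L1, fell from 93.6 to 53.0 CPM (-0.82). Gsk3b and Spop, both of which promote PD-L1 degradation, rose by 0.51 and 0.32 on the log2 scale, and Cdk5, a kinase whose loss lowers PD-L1 in tumor cells, rose by 0.57. The medians of their chromosomes were 0.25 for Gsk3b (chromosome 16), 0.27 for Spop (11) and 0.07 for Cdk5 (5). Ptpn2, a phosphatase that dampens interferon signaling, rose by 0.63, about the median of its chromosome, 18, which was 0.64. No protein was measured here.

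Checkpoint receptors belong to immune cells, and not all of those listed are partners of the ligands followed here. Of 12 listed, 11 were found in the files, of which 8 were too low to test. Pdcd1, Cd28 and Ctla4 were each below 0.2 CPM in every sample. The other 3 were above the floor in these tumor cells. Lag3, whose product restrains T cells, was at 0.504 CPM in vector and 0.506 CPM in ZEB1 cells and did not pass (edgeR, adjusted p = 0.97). Havcr2, the gene of TIM-3, which galectin-9 binds, was at 7.42, 6.90 and 7.44 CPM in vector and 21.7, 17.6 and 17.9 CPM in ZEB1 samples (log2 fold change 1.39, edgeR, adjusted p = 0.000169). Tigit, whose product binds PVR, was at 12.97, 13.8 and 12.3 CPM in vector and 6.73, 7.78 and 6.62 CPM in ZEB1 samples (-0.89, adjusted p = 0.00167). Neither Havcr2 nor Tigit overlapped between arms, which held for 52.8% of all tested genes, and they moved in opposite directions. Over all tested genes 18.3% were called higher and 19.3% lower. The reads of Tigit covered all 4 of its exons with more than 10 reads in every sample, and those of Havcr2 between 3 and 7 of its 7. Whether reads of other transcripts add to these counts was not tested. Ptprc and Cd3e were near the floor in the same libraries, as given above.

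Of 17 further ligands with a checkpoint or costimulatory receptor, 8 were tested, with 1 higher, 3 lower and a median log2 fold change of -0.41. The shares over all tested genes were 18.3% higher and 19.3% lower. Tnfsf9, the ligand of the costimulatory receptor 4-1BB, fell from 5.39 ± 1.45 to 0.399 ± 0.0395 CPM (log2 fold change -3.75, edgeR, adjusted p = 2.63e-05). Ceacam1, which can bind TIM-3, fell from 1.47 to 0.651 CPM (-1.19). Lgals8 was the 1 that rose. Icosl, Tnfrsf14 and H2-T23 did not pass, and Ido1, Cd70 and Cd48 were among the 9 too low to test.

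Among the 5 genes whose log2 CPM over the 6 samples followed Cd274 most closely were Lars, Hnrnpr, Arpc5 and Nim1, with Pearson r from 0.998 to 0.9996. These were ranked among 10103 genes with a mean of at least 5 CPM, of which 986 had r over 0.95. The points share 6 libraries in 2 arms, and a gene with a rise well beyond the spread within the arms follows Cd274 by that alone.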

How the data were processed

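RNA sequencing libraries of 6 samples (393P_vector and 393P_ZEB1, n = 3 each) were made with a SOLiD total RNA kit. For each, the authors deposited a raw read count per RefSeq feature, an RPKM, which is the count scaled by exon length and depth, and the number of exons with more than 10 reads as another column. The RPKM was not used. The aligner, the counter and its use of strand are not given in the sources used here. Symbols used by more than 1 feature marked 115 features, none a ligand. Of 20878 symbols matched to RefSeq GRCm38.p6, 69.1% share a start or end with it, and coordinates are read as GRCm38.

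Counts were fitted in R 4.3.3 with edgeR 4.0.16 (filterByExpr with minimum count 10, TMM, robust quasi-likelihood, no block), and p-values were adjusted by Benjamini-Hochberg over all 13892 tested genes and called below 0.05. Replicate variation, as edgeR's common BCV, was 0.184. Intervals at 95% use the t distribution with the moderated degrees of freedom. CPM per kb divides by the deposited exon length. Alternatives used DESeq2 1.42.0 and limma 3.58.1. Sites, figures and permutation tests used Python 3.11.15, NumPy 2.4.6, pandas 2.3.3, SciPy 1.17.1 and matplotlib 3.10.9. The fit was tested on simulated data.

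All 10 ligands are named whatever their values, as are list genes past the threshold, genes within 500 kb of Cd274, and the 5 genes most like it over the samples. Members and lists were chosen with earlier results of these data known, so no list is independent evidence and none was given a test of its own. Pvrig, on the receptor list, was not analysed here. Some genes that the rule names are not reported here. Of 5 endothelial markers, 2 were tested. Kdr fell and Pecam1 did not pass, where 19.3% of all tested genes were called lower. The sum of the 5 lay between 2.31 and 2.69 CPM in vector and between 0.684 and 0.95 CPM in ZEB1 samples.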

Additional observations from a re-analysis of the deposited data

How the results depend on the processing

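The call of Cd274 kept its direction and stayed past the threshold under every alternative, as did that of Nt5e. The log2 fold change of Cd274 was 1.03 with the DESeq2 Wald test and 0.93 with limma voom, and from 0.94 to 1.09 when each sample was left out in turn, while that of Nt5e ranged from -2.77 to -2.62. The number of ligands called higher was 2 with the DESeq2 Wald test and 2 with limma voom, in both cases with Lgals9 added. It ranged from 1 to 3 with a sample left out, the 3 without vector replicate 3 being Cd274, Lgals9 and Cd47. Over all genes, limma voom called 3971 higher and 4100 lower. Leaving out a sample gave from 1861 to 3700 genes higher and from 1784 to 3776 lower, the lowest without ZEB1 replicate 3. No result changed direction. The cause of these differences was not tested.

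The labels give both arms the replicate numbers 1 to 3. Deviations from the arm mean correlated at 0.279, -0.205 and -0.038 for equal numbers and from -0.182 to 0.222 for unequal ones. With so few samples in an arm, these values cannot show whether the numbers pair the samples. With the replicate number as a block, Cd274 had a log2 fold change of 1.02 (edgeR, adjusted p = 0.0076) and Nt5e -2.70 (adjusted p = 0.00014), 1 ligand was called higher and 1 lower, and 2180 genes were called higher and 2256 lower. Depth limits Pdcd1lg2, Cd80, Cd86 and Vtcn1, at 0 to 7 counts per sample.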
